A study of Danio rerio with 6 samples.

Results

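The MHC class I peptide loading genes described here are 10 zebrafish genes: b2m, tap1, tap2a, tapbp.1, tapbp.2, mhc1uba, mhc1zba, calr, pdia3 and nlrc5. They were taken as the rows of the deposited count table whose Ensembl gene name, with case ignored, was one of these names, and all 10 were found among the 32105 genes of the table. The table lists 3 of them under the capital-letter symbols TAP1, CALR and PDIA3.

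MHC class I molecules display short peptides from inside the cell at its surface, where CD8 T cells and related lymphocytes read them. Each molecule is a heavy chain paired with beta-2-microglobulin. Peptides cut by the proteasome are pumped into the endoplasmic reticulum by the TAP transporter, a pair of TAP1 and TAP2 subunits, and tapasin, calreticulin and the disulfide isomerase PDIA3 hold the empty heavy chain beside the pump until a fitting peptide is bound. NLRC5 is known in mammals as the transactivator that drives class I genes together. Most nucleated cells make class I molecules, and blood and immune cells make them abundantly. In zebrafish the classical heavy chains belong to the U lineage, and fish also carry the related Z and L lineages.

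The data are RNA-seq read counts from 3 libraries of homozygous IT325 mutants and 3 libraries of wild-type siblings. The age given for all of them is 5 days post fertilization. IT325 (allele t24980) is a chemically induced nonsense mutation of ikzf1, the gene of the transcription factor Ikaros, and its product keeps the DNA-binding zinc fingers and lacks the C-terminal ones that pair with other proteins. Per the study's methods each group was 3 individual fish, and per the labels every library came from the whole body of fish of mixed wild-type strains. The comparison asks which transcripts differ in level when Ikaros is truncated.

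The libraries held 40732782 to 52954765 counts in mutants and 37390073 to 53279243 counts in wild type. The transcript of ikzf1 itself stood at 1073, 1730 and 1145 CPM (counts per megacount of the library) in mutants, against 282, 321 and 311 CPM in wild type, so the mutated gene separated the labelled groups. Over all 17828 genes tested, 3122 were higher and 2917 lower in mutants. Markers of several solid tissues were close to absent for libraries labelled as whole body. The summed level of 10 skeletal muscle genes was 5.65 to 7.95 CPM in mutants, against 5.18 to 7.94 CPM in wild type, that of 10 neural genes 1.18 to 9.37 CPM in mutants, against 1.39 to 17.9 CPM in wild type, and 6 of 10 retina and lens genes were at 0 in all 6 libraries. By contrast, 8 erythroid genes summed to 21778 to 30452 CPM in mutants, against 6542 to 10240 CPM in wild type. Most of this erythroid sum came from hbaa1, at a mean of 16711 CPM in mutants, against 5287 CPM in wild type. A list of 5 exocrine pancreas genes summed to 2274 to 2815 CPM in mutants, against 1493 to 1903 CPM in wild type. Nearly all of that sum came from 1 gene listed as CPA1 (ENSDARG00000021339), which was higher in mutants. By comparison, prss1, prss59.1 and ela2 were at 0.0378 to 5.04 CPM in mutants, against 0.0563 to 5.50 CPM in wild type. The symbol CPA1 is written as a human one, and which zebrafish gene it stands for was not tested. The sum is therefore not read as a level of pancreas tissue. The muscle, neural, retina and lens markers thus went against the label, and the libraries are called here by genotype only. The age of the libraries likewise rests on the labels and the study's methods, and was not tested.

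The light chain, a transporter subunit and a heavy chain were lower in mutants, and none of the genes tested was called higher. Of the 10 genes, 9 passed the filter on low counts and were tested. With edgeR's quasi-likelihood test and Benjamini-Hochberg adjustment over all genes, b2m, tap2a and mhc1zba were lower, by 1.23- to 1.62-fold, 0 were higher and 6 were not called. At an unadjusted p under 0.05 edgeR counted 4 lower and 0 higher. The share of all genes at that unadjusted threshold was not counted, so nothing is read from these 4. DESeq2 called 3 lower and 0 higher, where it called 6510 of all 17828 genes in either direction. Of all 17828 genes tested, edgeR called 33.9% in either direction, with 16.4% lower and 17.5% higher. Taken in either direction, the 3 of 9 lay near the share over all genes. By direction, 3 of 9 lower stood against 16.4%, and 0 of 9 higher against 17.5%. Whether so few genes depart from these shares was not tested. The median log2 fold change of the 9 genes was -0.30, against -0.01 over all genes tested. The levels of 4 genes, b2m, tap1, tap2a and mhc1zba, did not overlap between mutants and wild type, all of them lower in mutants, where 24.7% of all genes tested were lower without overlap. In these bulk samples fewer cells that express a gene and less RNA per cell cannot be told apart.

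**Figure D1:**
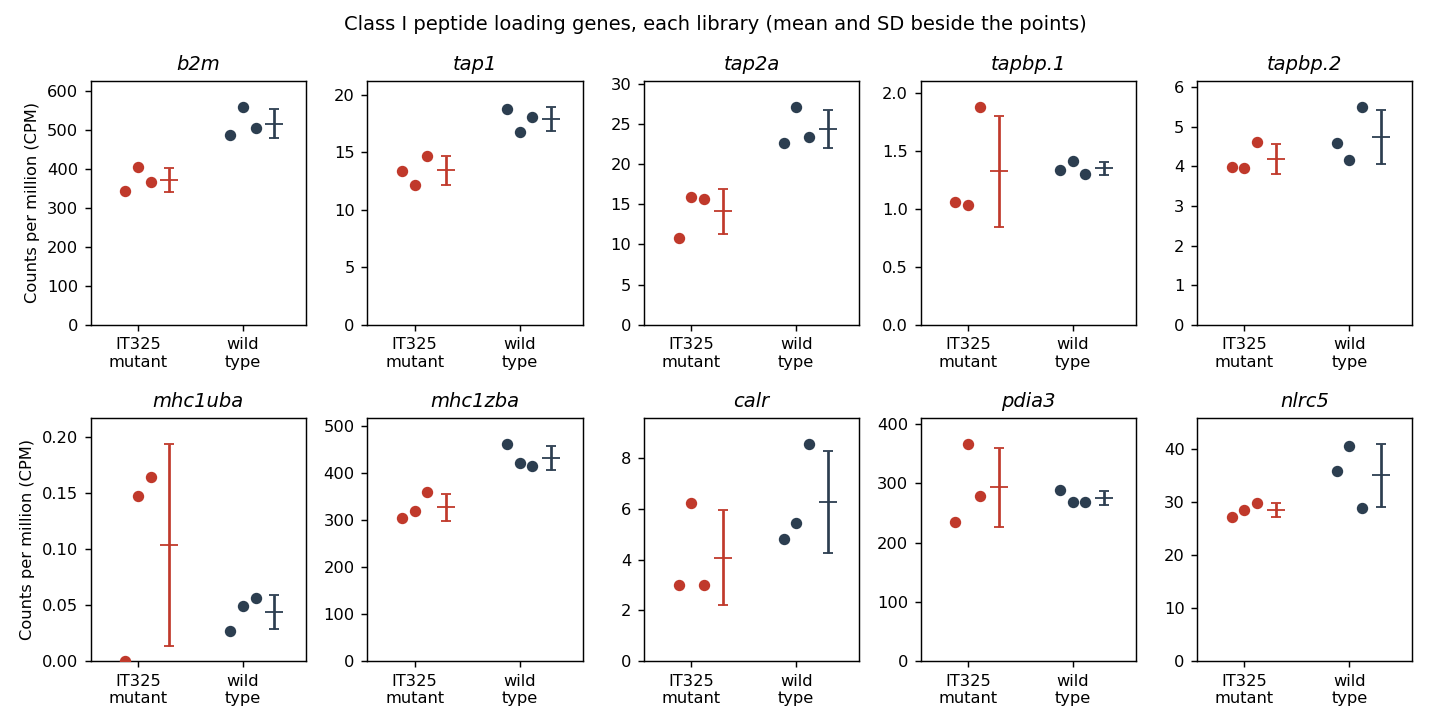
Level of each of the 10 class I loading genes in CPM (vertical axes, each from 0 and scaled to its gene) in the 3 IT325 mutant libraries (red, left) and the 3 wild-type libraries (dark, right). Bars beside the points are the mean and SD; the points of b2m, tap1, tap2a and mhc1zba do not overlap between the groups, and those of the other 6 genes do.

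The light chain was lower in every mutant library. The transcript of b2m (ENSDARG00000053136), which encodes beta-2-microglobulin, stood at 343, 405 and 365 CPM in mutants, against 486, 558 and 504 CPM in wild type. The groups did not overlap. The means were 371 ± 31.3 CPM in mutants, against 516 ± 37.5 CPM in wild type (± SD over 3 libraries each), and the log2 fold change was -0.37 (standard error 0.0777; edgeR adjusted p = 0.0066), a 1.29-fold lower level. This call held in all 14 alternative fits, with log2 fold changes between -0.48 and -0.32. The value of -0.48 came from scaling by column totals alone, as in the CPM printed here. The change was small beside the range of the data, since 24.6% of all genes tested had a more negative log2 fold change.

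A second light chain gene, b2ml, was also lower in mutants. It stood at 256, 273 and 292 CPM in mutants, against 336, 353 and 333 CPM in wild type, again without overlap. In edgeR the fitted log2 change came to -0.21 (standard error 0.0640; adjusted p = 0.0323). That call was lost without mutant replicate 1 (-0.19), mutant replicate 2 (-0.20), wild-type replicate 1 (-0.22) or wild-type replicate 2 (-0.20), where edgeR's adjusted p was 0.0879 to 0.109. Within each library the log2 ratio of b2m to b2ml counts averaged 0.44 ± 0.13 in mutants, against 0.60 ± 0.06 in wild type (± SD over 3 libraries each; exact permutation p = 0.2, adjusted 0.28 over the 7 ratios compared).

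Of the heavy chain genes of the set, mhc1zba was lower in mutants and mhc1uba had too few reads to test. The transcript of mhc1zba (ENSDARG00000036588), a heavy chain of the Z lineage, stood at 305, 319 and 360 CPM in mutants, against 463, 421 and 415 CPM in wild type. All mutant values lay below all wild-type values. The means were 328 ± 28.4 CPM in mutants, against 433 ± 25.8 CPM in wild type (± SD over 3 libraries each), and the log2 fold change was -0.30 (standard error 0.0785; edgeR adjusted p = 0.0183). The call depended on which libraries were fitted. It was lost without mutant replicate 1 (log2 fold change -0.28, edgeR adjusted p = 0.0606), without mutant replicate 2 (-0.27, adjusted p = 0.0716) and without wild-type replicate 1 (-0.24, adjusted p = 0.0714). The call of mhc1zba held without mutant replicate 3 (edgeR adjusted p = 0.0165), wild-type replicate 2 (0.0347) or wild-type replicate 3 (0.0235). Set against the light chain, mhc1zba overlapped between the groups. The log2 ratio of mhc1zba to b2m counts was -0.18 ± 0.16 in mutants, against -0.25 ± 0.17 in wild type (± SD over 3 libraries each, exact permutation p = 0.7).

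The transcript of mhc1uba (ENSDARG00000075963), a classical heavy chain of the U lineage, was counted 0, 6 and 7 times in mutants, against 1, 2 and 3 times in wild type. These counts are close to the floor of 3 counts, the number that a count of 0 still allows, which equals 0.0563 to 0.0802 CPM in these libraries. The gene did not pass the filter, was not tested, and no fold is given. A difference was not detectable at this depth. The classical region of zebrafish differs between haplotypes in which U genes it carries, and reads from a heavy chain that the annotation does not hold are not counted under any of these names.

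The other heavy chain genes set these values in context. Of 19 heavy chain genes matched in the table, 8 of the Z lineage took 98.4% to 99.0% of the counts of these 19 genes in every library. Only 3 of the 19 were of the U lineage. Most listed U lineage symbols, among them mhc1uda and mhc1uea, had no match by name. Reads of such genes are not part of these shares, so the level of the U lineage as a whole is not known from them. The share of mhc1zba alone was 73.6% to 77.4% in mutants and 74.8% to 77.3% in wild type, and that of mhc1uba was at most 0.0353%. These are shares of reads, not corrected for transcript length. Of the 7 Z lineage genes other than mhc1zba, all tested, 2 were lower and 5 were not called. The transcript of mhc1zda stood at 15.3, 18.4 and 15.9 CPM in mutants, against 28.1, 31.2 and 30.2 CPM in wild type. The groups were apart, at a log2 fold change of -0.75 (standard error 0.0953; edgeR adjusted p = 5.29e-04), and the call held in all 14 alternative fits.

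The second Z lineage gene that was lower, mhc1zja, averaged 6.14 ± 0.484 CPM in mutants, against 8.93 ± 1.05 CPM in wild type (± SD over 3 libraries each; log2 fold change -0.44, edgeR adjusted p = 0.0344). Its call was lost in 7 of the 14 alternatives, among them every fit that left out 1 library except the fit without wild-type replicate 2, at log2 fold changes between -0.47 and -0.34. The other 5 Z lineage genes were not called. Among these, mhc1zaa and mhc1zea had log2 fold changes of -0.08 and -0.12, and mhc1zfa and mhc1zka, with at most 35 counts in any library, had -2.36 and -1.91 at edgeR adjusted p of 0.0646 and 0.0685. Of 8 L lineage genes, 4 were tested and 1 was lower. This was mhc1lca, with 68, 69 and 65 counts in mutants, against 106, 155 and 117 counts in wild type (log2 fold change -0.87, edgeR adjusted p = 0.0367), whose call was lost in all fits that left out 1 library except the fit without wild-type replicate 3 (-0.96 to -0.65). The 1 further U lineage gene tested, mhc1uca, was not called (log2 fold change -0.48, edgeR adjusted p = 0.359). Another 4 heavy chain genes were at 0 in all 6 libraries. Heavy chain genes of zebrafish are similar in sequence, the handling of reads that map to several of them is not stated beyond default settings, and the split of counts between copies is therefore uncertain.

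**Figure D2:**
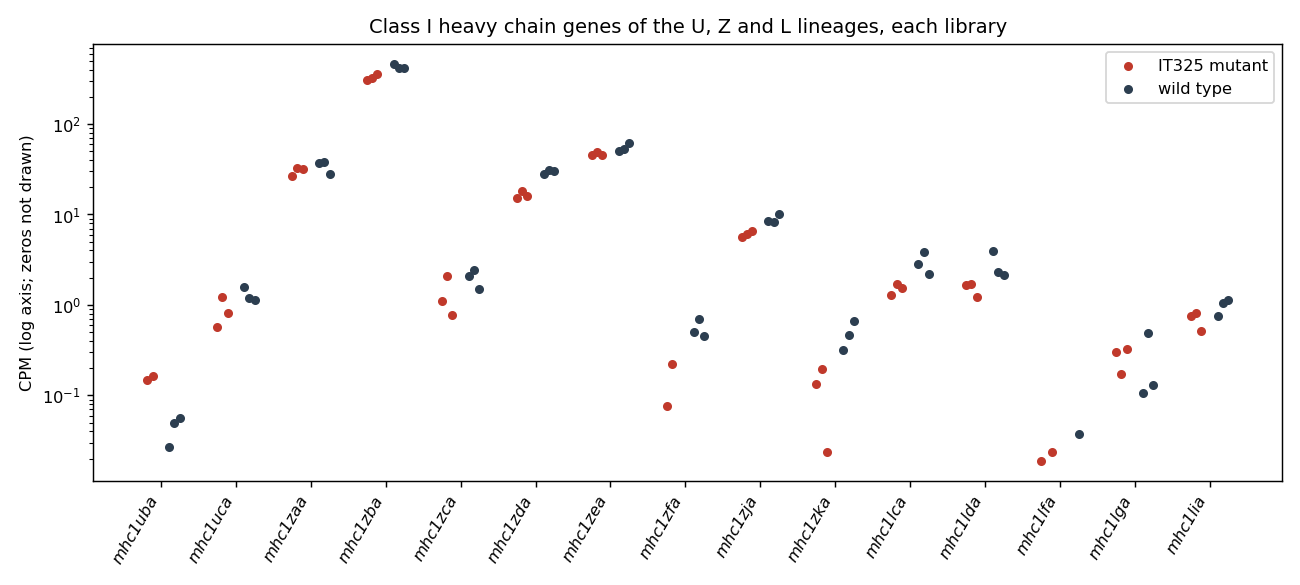
Level in CPM (vertical log axis; values of 0 are not drawn) of the 15 class I heavy chain genes of the U, Z and L lineages with at least 1 count, in each IT325 mutant library (red, left of each name) and each wild-type library (dark, right). The 8 Z lineage genes (mhc1z names) hold nearly all counts, mhc1zba has the most reads, and the mhc1zda points of the groups are apart.

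Of the transporter subunits, tap2a was lower in mutants and tap1 missed the threshold. The transcript of tap2a (ENSDARG00000036787) stood at 10.8, 15.9 and 15.6 CPM in mutants, against 22.7, 27.1 and 23.4 CPM in wild type. All mutant values lay below all wild-type values, with mutant replicate 1 the lowest. The means were 14.1 ± 2.85 CPM in mutants, against 24.4 ± 2.38 CPM in wild type (± SD over 3 libraries each), and the log2 fold change of -0.69 (standard error 0.137; edgeR adjusted p = 0.00505) was the most negative of the 9 genes tested, a 1.62-fold lower level. The call held in all 14 alternative fits, with log2 fold changes between -0.79 and -0.55.

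The partner subunit tap1 (ENSDARG00000079766) stood at 13.4, 12.2 and 14.7 CPM in mutants, against 18.8, 16.7 and 18.1 CPM in wild type. The groups did not overlap, and the means were 13.4 ± 1.27 CPM in mutants, against 17.9 ± 1.05 CPM in wild type (± SD over 3 libraries each). The log2 fold change of -0.31 (standard error 0.110) missed the threshold (edgeR adjusted p = 0.0588). Upper-quartile scaling (-0.34, adjusted p = 0.0393) and scaling by column totals alone (-0.41, adjusted p = 0.0190) put it past the threshold, but the second of these also moved the median of all genes to -0.11. A further TAP2 gene of fish, tap2t, was not called, at 22.6 ± 2.89 CPM in mutants, against 26.5 ± 1.11 CPM in wild type (± SD over 3 libraries each; log2 fold change -0.13, edgeR adjusted p = 0.333).

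Ratios within a library compare the subunits without any scaling factor. The log2 ratio of tap2a to tap2t counts was -0.84, -0.64 and -0.59 in mutants, against -0.21, 0.08 and -0.24 in wild type, and the groups did not overlap. The difference of -0.57 had an exact permutation p of 0.1, the smallest that 3 against 3 libraries allow, and 0.233 after adjustment over the 7 ratios. The log2 ratio of tap2a to tap1 overlapped between the groups, at 0.05 ± 0.35 in mutants, against 0.44 ± 0.22 in wild type (± SD over 3 libraries each; exact permutation p = 0.3). A difference between tap1 and tap2a in their change was thus not shown.

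**Figure D3:**
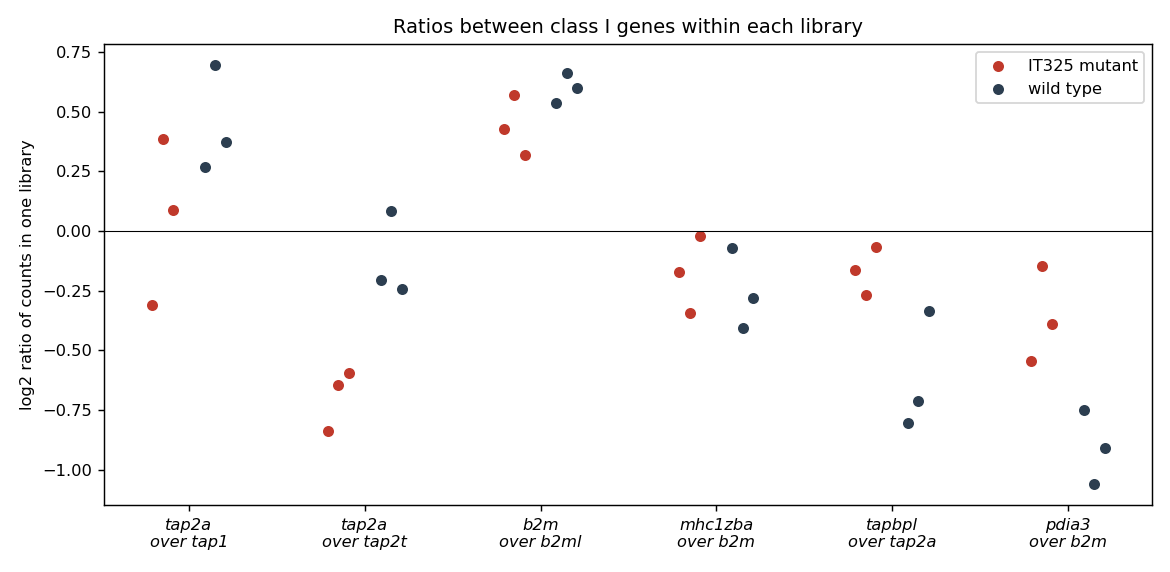
Log2 ratio of the counts of one class I gene to another within each library (vertical axis), for the IT325 mutant libraries (red, left) and the wild-type libraries (dark, right) at 6 of the 7 ratios compared. The groups are apart for tap2a over tap2t, tapbpl over tap2a and pdia3 over b2m, each with the smallest exact p possible (0.1), and overlap for the other ratios drawn.

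The tapasin genes did not pass the test. Tapasin bridges the transporter and the empty heavy chain. The transcript of tapbp.1 (ENSDARG00000079402) stood at 1.06, 1.03 and 1.87 CPM in mutants, against 1.34, 1.41 and 1.30 CPM in wild type, from 42 to 80 reads a library. Mutant replicates 1 and 2 lay below all wild-type libraries and mutant replicate 3 above them. EdgeR estimated a log2 fold change of 0.07 (standard error 0.325; adjusted p = 0.892), and its sign turned with scaling by column totals alone (-0.03) and without mutant replicate 3 (-0.23). The transcript of tapbp.2 (ENSDARG00000045011) stood at 3.98, 3.95 and 4.62 CPM in mutants, against 4.60, 4.16 and 5.50 CPM in wild type. Its groups overlapped, and the log2 fold change was -0.08 (standard error 0.173; edgeR adjusted p = 0.743) and turned to 0.03 without wild-type replicate 3. The tapasin-like gene tapbpl, whose mammalian counterpart edits class I peptides away from the transporter, was not called either, at 9.67, 13.2 and 14.9 CPM in mutants, against 13.0, 16.6 and 18.6 CPM in wild type (log2 fold change -0.26, edgeR adjusted p = 0.274).

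Several of these genes are neighbours. In the RefSeq annotation of the zebrafish assembly GRCz12tu, used for gene order only because the counts rest on an older build, tapbp.1, tapbp.2, mhc1uba and tap2a lie on 1 chromosome, with tap2a 8 protein-coding genes after tapbp.1. Between mhc1uba and tap2a lie the proteasome genes psmb13a, psmb8a, psmb12 and psmb9a, whose products belong to the proteasome form that cuts peptides for class I. The other 6 genes of the set are on other chromosomes, and none of the 10 shares a chromosome with ikzf1. Within this run tap2a and psmb13a were lower, and tapbp.1, tapbp.2, psmb12 (log2 fold change -0.16) and the genes listed as PSMB8 (-0.30) and PSMB9 (-0.22) were not called. The transcript of psmb13a stood at 23.2, 31.6 and 30.7 CPM in mutants, against 37.0, 41.8 and 38.6 CPM in wild type, with a log2 fold change of -0.36 (edgeR adjusted p = 0.0297). Its groups did not overlap, but its call was lost in 5 of the 6 fits that left out 1 library, all except the fit without mutant replicate 2, at log2 fold changes between -0.39 and -0.25.

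The loading chaperones were not called. Calreticulin holds sugar-bearing heavy chains, and PDIA3 is the disulfide isomerase that works with it. The transcript of calr (ENSDARG00000076290) stood at 2.98, 6.21 and 3.00 CPM in mutants, against 4.79, 5.42 and 8.54 CPM in wild type. Mutant replicate 2 lay above wild-type replicates 1 and 2, while the other mutant libraries lay below all wild-type libraries. In edgeR the fitted log2 change came to -0.53 (standard error 0.339; adjusted p = 0.271), and without mutant replicate 2 it was -0.95 and past the threshold (adjusted p = 0.0416).

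Further calreticulin genes had positive log2 fold changes that missed the threshold. The transcript of calr3a stood at 60.4, 91.2 and 75.3 CPM in mutants, against 50.2, 61.5 and 68.2 CPM in wild type, and that of calr3b at 22.8, 44.4 and 32.2 CPM in mutants, against 12.2, 17.3 and 26.2 CPM in wild type. These values overlapped between the groups in both genes, while on the TMM-scaled CPM used for the counts of overlap those of calr3a did not. The log2 fold changes were 0.43 for calr3a (edgeR adjusted p = 0.0562) and 0.93 for calr3b (adjusted p = 0.0773), neither past the threshold. Both passed it in DESeq2 (adjusted p = 0.0149 for calr3a and 0.00228 for calr3b) and without wild-type replicate 3 (0.54 and 1.26), and calr3a also without mutant replicate 1 (0.55).

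The transcript of pdia3 (ENSDARG00000102640) stood at 235, 366 and 278 CPM in mutants, against 289, 268 and 269 CPM in wild type. The mutant values spanned the wild-type values, with mutant replicate 2 the highest of the 6 libraries. EdgeR estimated a log2 fold change of 0.19 (standard error 0.136; adjusted p = 0.319). Relative to the light chain, the log2 ratio of pdia3 to b2m was -0.55, -0.15 and -0.39 in mutants, against -0.75, -1.06 and -0.91 in wild type. The groups did not overlap in this ratio (exact permutation p = 0.1, the smallest possible, adjusted 0.233), and its mean difference was 0.55.

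The regulator nlrc5 (ENSDARG00000024631) stood at 27.3, 28.5 and 29.9 CPM in mutants, against 35.9, 40.6 and 28.9 CPM in wild type. The mutant libraries lay close together, and wild-type replicate 3 fell among them while the other wild-type libraries lay above. In edgeR the fitted log2 change came to -0.20 (standard error 0.120; adjusted p = 0.244), and without wild-type replicate 3 it was -0.32 and past the threshold (adjusted p = 0.0267). Among 21 other genes of class I regulation, 3 were lower, 2 were higher and 16 were not called. The most negative change among those called was that of irf1b, an interferon regulatory factor known in mammals to bind class I promoters. The transcript of irf1b stood at 95.1, 99.7 and 82.6 CPM in mutants, against 158, 168 and 173 CPM in wild type. The groups did not overlap, and the log2 fold change of -0.74 (standard error 0.0960; edgeR adjusted p = 5.82e-04) held in all 14 alternatives.

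The remaining regulators that passed the test were of mixed direction. The gene listed as CREB1 was lower, at a log2 fold change of -0.71 (edgeR adjusted p = 0.00216), and creb1a at -0.36 (adjusted p = 0.0226). The kinase gene jak2a was higher, at 0.37 (adjusted p = 0.00862), and irf9 at 0.34 (adjusted p = 0.0319). The calls of CREB1 and jak2a held in all 14 alternatives, while that of creb1a was lost without mutant replicate 1, 2 or 3 or wild-type replicate 1 (-0.37 to -0.27) and that of irf9 in 6 alternatives, among them the fits without mutant replicate 1 or 2 and without wild-type replicate 1 or 2 (0.29 to 0.37). The interferon signal genes stat2 and JAK1 and the class I and class II promoter factors rfx5, RFXAP and RFXANK were not called.

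Across the wider pathway the calls went in both directions. Of 65 other pathway genes matched by their exact symbol and tested, 11 were lower, 6 were higher and 48 were not called, with a median log2 fold change of -0.08. Of all 17828 genes tested, 16.4% were lower and 17.5% higher. The 11 lower of 65 thus lay near the share over all genes, and the 6 higher lay below it. The counts by group are to be read against the same shares. With 9 more genes found under a human symbol, the counts were 12 lower, 7 higher and 55 not called of 74, and the counts by group include these. The count of lower genes was 5 without wild-type replicate 1, 6 without mutant replicate 1 and 6 without mutant replicate 3. The count of higher genes was 2 without wild-type replicate 1 or 2, 3 without mutant replicate 2, and 13 without wild-type replicate 3, so the balance of the 2 directions differed between these fits. The calls over all genes moved as well. They went from 6039 to 4587 without wild-type replicate 1, to 4664 without wild-type replicate 2 and to 5978 without wild-type replicate 3. Without mutant replicate 1, 2 or 3 they were 4687, 4799 and 5121.

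**Figure D4:**
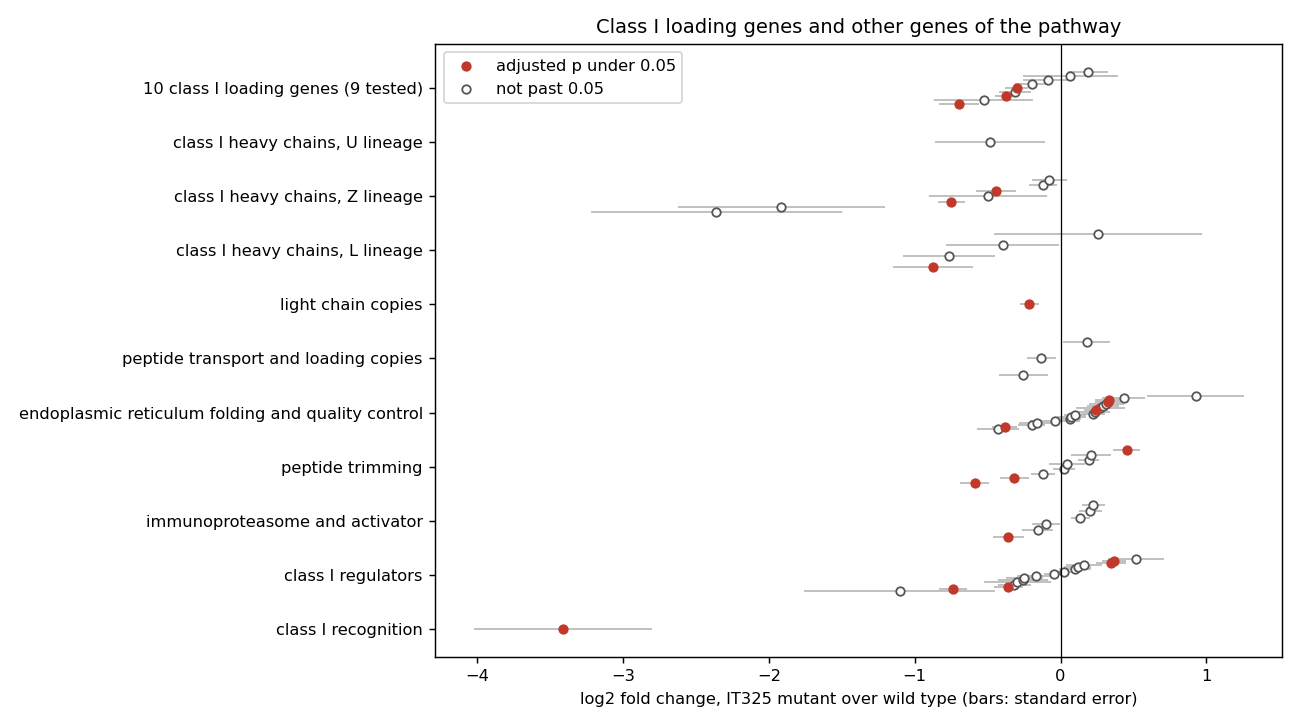
Log2 fold change, IT325 mutant over wild type (horizontal axis, bars are the standard error), of the 9 tested class I loading genes (top) and of 65 other pathway genes by group. Red points passed an edgeR adjusted p of 0.05; the called loading genes and heavy chains lie left of 0, and called genes of endoplasmic reticulum folding, peptide trimming and regulation lie on both sides.

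Peptide trimming genes were split. The endoplasmic reticulum aminopeptidase ERAP1 trims peptides to class I length, and both genes listed under that symbol were lower in mutants. The first (ENSDARG00000021859) stood at 24.8, 32.2 and 33.4 CPM in mutants, against 45.3, 51.1 and 49.2 CPM in wild type. Its groups did not overlap, and its log2 fold change was -0.59 (edgeR adjusted p = 0.00239), a call that held in all 14 alternatives. The second (ENSDARG00000013024) averaged 21.7 ± 1.42 CPM in mutants, against 29.1 ± 1.87 CPM in wild type (± SD over 3 libraries each; log2 fold change -0.32, edgeR adjusted p = 0.0397), and its call was lost without mutant replicate 2 or 3 or wild-type replicate 1 or 3 (-0.32 to -0.25). The cytosolic peptidase gene BLMH was higher, at 39.8 ± 3.04 CPM in mutants, against 31.2 ± 1.90 CPM in wild type (± SD over 3 libraries each; log2 fold change 0.45, edgeR adjusted p = 0.00557). The other 5 of 8 genes in this group were not called.

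General folding genes of the endoplasmic reticulum were mostly not called, at 14 of 18. Those higher in mutants were P4HB (log2 fold change 0.33, edgeR adjusted p = 0.0278), PPIB (0.33, adjusted p = 0.0215) and PRKCSH (0.24, adjusted p = 0.0484), which encode a disulfide isomerase, a prolyl isomerase and the beta subunit of glucosidase II. None of these calls held under all alternatives, and scaling by column totals alone ended each. Those of P4HB and PPIB were also lost without mutant replicate 2 or wild-type replicate 1 or 2 (0.25 to 0.35), and that of PRKCSH in all fits that left out 1 library except the fit without mutant replicate 2 (0.18 to 0.26). The gene that was lower, 1 of 2 listed as GANAB, the catalytic subunit of glucosidase II, had a log2 fold change of -0.38 (edgeR adjusted p = 0.00844), a call that held in all 14 alternatives, and the other GANAB gene was not called (0.10). HSPA5 just missed the threshold, at -0.43 (edgeR adjusted p = 0.0545). It stood at 151, 192 and 144 CPM in mutants, against 211, 213 and 281 CPM in wild type, without overlap. It passed in DESeq2 (adjusted p = 0.0159), with upper-quartile or no scaling, and without mutant replicate 2. In this group 13 of 18 genes had a positive log2 fold change and 5 a negative value.

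The proteasome genes gave 1 lower and 1 higher of 10 tested. The lower gene was psmb13a, described with its neighbours. The higher gene was 1 of 2 listed as PSME4, a proteasome activator, at 31.8 ± 3.22 CPM in mutants, against 24.3 ± 3.28 CPM in wild type (± SD over 3 libraries each; log2 fold change 0.49, edgeR adjusted p = 0.00839). PSMB10 and the activator genes PSME1, PSME2 and PSME3 were not called, with log2 fold changes between -0.10 and 0.23.

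On the receptor side of class I recognition, cd8a was lower in mutants. This coreceptor gene, expressed by the T cells that read class I, was counted 4, 6 and 4 times in mutants, against 45, 77 and 30 times in wild type. EdgeR estimated a log2 fold change of -3.41 (standard error 0.610; adjusted p = 0.00308). Its partner cd8b did not pass the filter, with 4, 7 and 0 counts in mutants, against 13, 33 and 4 in wild type.

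Markers of blood cell types moved between the same libraries. The summed level of 4 B cell genes was 10.3 to 40.1 CPM in mutants, against 341 to 403 CPM in wild type, with 4 of 4 lower. That of 8 T cell genes was 193 to 261 CPM in mutants, against 885 to 993 CPM in wild type, with 8 of 8 lower. Most of this T cell sum came from a gene listed as CCR9 (ENSDARG00000055186), matched for ccr9a. It averaged 182 CPM in mutants, against 769 CPM in wild type. The paper lists ccr9a in its profiles of both T cells and B cells. Of 8 erythroid genes, 7 were tested and 7 were higher. The 4 neutrophil genes summed to 24301 to 27434 CPM in mutants, against 17143 to 17969 CPM in wild type, with 3 higher and 1 lower. Most of this neutrophil sum came from lyz, at a mean of 18760 CPM in mutants, against 11400 CPM in wild type. The lower gene was mmp13a, at a mean of 617 CPM in mutants, against 1442 CPM in wild type. The ranges of these 4 lists did not overlap between the groups. Nor did those of 10 genes of the macrophage list, at 1631 to 1929 CPM in mutants, against 2449 to 2647 CPM in wild type. Of these 10, marco and csf1ra were higher, cd74a and cd74b, which encode the class II invariant chain, were lower, and 6 were not called. Most of the macrophage sum came from cd74a and cd74b, which the paper lists for B cells as well as macrophages. Their means were 942 and 547 CPM in mutants, against 1595 and 815 CPM in wild type. Those of marco and csf1ra were 238 and 51.9 CPM in mutants, against 108 and 35.9 CPM in wild type. The sums of 4 innate lymphocyte genes overlapped, at 305 to 368 CPM in mutants, against 333 to 376 CPM in wild type, with gzmk lower and 3 not called. Most of this sum came from nccrp1, at a mean of 326 CPM in mutants, against 344 CPM in wild type. The means of nkl.3, nkl.2 and gzmk were 0.244, 6.05 and 1.34 CPM in mutants, against 0.627, 9.21 and 3.07 CPM in wild type. The sum is therefore mainly a level of nccrp1. The part of these markers in the lower levels of b2m, tap2a, mhc1zba and the other class I genes was not tested.

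The 5 genes with the pattern most like that of b2m across the 6 libraries were not among the class I genes listed here. By Pearson's r of log2(CPM + 1) over 6 libraries, the closest of 10421 genes with a symbol and a mean of at least 5 CPM were CRY1 (0.998), SKI (0.997), PLEKHM3 (0.996), parp4 (0.995) and TADA2A (0.995). Among the class I loading genes the values were 0.969 for tap2a, 0.837 for mhc1zba, 0.762 for nlrc5, 0.743 for tap1, 0.714 for calr and 0.06 for pdia3. The points are shared by all these genes and fall into the mutant and wild-type groups, so genes that differ between the groups in the same direction tend to give a high value. Few of the 10421 genes belong to the class I pathway, so nothing is concluded from the closest genes lying outside it.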

How the data were processed

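The authors aligned paired-end reads of poly-A-selected, stranded libraries with STAR 2.5.2b-1 to the zebrafish genome and assigned them to Ensembl genes with featureCounts 1.6.0.1 at default settings, per their methods; the annotation was older than GRCz12tu, and settings for strand and for reads that map to several genes are not given in the sources used here. The deposited table holds these raw counts, with no scaling, and all 6 of its columns were used. A separate list paired 26269 of 32105 identifiers (81.8%) with symbols, many of them human, and listed genes that could not be matched by symbol were left out. Genes without a symbol stayed in the fit, in the adjustment of p-values and in the counts over all genes tested.

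All 6 libraries were fitted in edgeR 4.0.16 (R 4.3.3, limma 3.58.1) with filterByExpr at a minimum count of 10, TMM scaling and the robust quasi-likelihood test without a covariate. P-values were adjusted by Benjamini-Hochberg over 17828 genes, with a threshold of 0.05. They rest on the spread between the libraries of each group, which the study's methods give as individual fish. A log2 fold change is that of the mutant relative to wild type, with a prior count of 0.125, and its standard error was worked out from the F value. CPM were taken by column total, and overlap between groups was read from TMM-scaled CPM. The TMM factors were 0.919 to 0.997 in mutants, against 1.02 to 1.05 in wild type. CPM by column total therefore place mutants lower relative to wild type than the fitted log2 fold changes do. A count of 3 was the floor, which covers counting error only. Ratios of counts went into an exact permutation test (two-sided), whose smallest p is 0.1 here. The fit was tested on simulated data.

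The alternatives were median-ratio, upper-quartile and no scaling, TMM without the 50 most abundant genes, no filter, a mean of at least 10 counts, DESeq2 1.42.0, a block for the replicate number, a stricter threshold of 0.01, and leaving out each library. Symbols of human genes were added to the matching after seeing the names. The genes of the set are all named; other pathway genes could be named when past the threshold, and those named without a call were chosen after their values were seen. Genes like b2m were the 5 with the highest correlation. The members and lists were chosen with earlier results of these data known.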

Additional observations from a re-analysis of the deposited data

How the results depend on the processing

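The count of loading genes called, 3 of 9, ranged from 2 to 4 over all alternatives. It was 2 at an adjusted p under 0.01, 4 with upper-quartile or no scaling, and 2 to 4 when 1 library was left out. No loading gene was called higher in mutants in any alternative. Among the log2 fold changes of single loading genes, 116 of 126 values kept their direction and their side of the threshold. The 3 that changed sign were tapbp.1 without scaling factors (-0.029) and without mutant replicate 3 (-0.23), and tapbp.2 without wild-type replicate 3 (0.035); when 1 library was left out tapbp.1 ranged from -0.23 to 0.22 and tapbp.2 from -0.18 to 0.035, and the cause was not tested. The 17 other pathway genes called became 7 at an adjusted p under 0.01, 24 with DESeq2 and 7 to 21 when 1 library was left out. The 6 higher became 2 at an adjusted p under 0.01, 2 without scaling factors, 11 with DESeq2 and 2 to 13 when 1 library was left out. The 11 lower became 5 at an adjusted p under 0.01 and 5 to 8 when 1 library was left out. They rose to 13 with upper-quartile scaling, 15 without scaling factors and 13 with DESeq2. Leaving out the scaling factors put the median change over all genes at -0.11 on the log2 scale, against -0.01 with TMM, and 39.4% of calls were higher in mutants, against 51.7% with TMM. The deviations of mutant and wild-type libraries with the same number correlated at 0.06, 0.12 and 0.09. Those of libraries with different numbers correlated at -0.16 to 0.06. Whether the numbers pair the fish was not tested, and the main fit had no block for them. With the replicate number as a block, 3 loading genes and 14 other pathway genes were called (8 lower, 6 higher). The calls of b2ml, mhc1zja, mhc1lca, irf9 and PRKCSH were lost in that fit (edgeR adjusted p = 0.0511 to 0.0841). In it calr3a (0.43, edgeR adjusted p = 0.0239) and calr3b (0.95, adjusted p = 0.0230) passed the threshold. Depth limits mhc1uba, tapbp.1 and the low heavy chain genes, whose counts reach 80 at most in the case of tapbp.1.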
